A study of Mus musculus with 4 samples.

Results

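The cells described are the peptide-hormone enteroendocrine cells of mouse intestinal organoids, 129 of 5429 barcodes in 4 droplet single-cell RNA-seq libraries. They were chosen from the counts themselves. Barcodes with at least 500 detected genes were kept, and a member had at least 5 unique molecular identifiers (UMIs, 1 for each captured RNA molecule) of Chga plus Chgb, those UMIs at 500 CPM or more (UMIs of the genes divided by all UMIs of the barcode, times 1000000), and at least as many UMIs of Gcg, Cck, Pyy and Ghrl together as of Tac1 and Tph1 together. Another 58 barcodes that passed the same granin threshold but had more Tac1 and Tph1 UMIs are called enterochromaffin-type cells here, and the remaining 5242 barcodes failed it. Because these 8 genes chose the cells, their values are given as a description, without a test.

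Organoids were grown from intestinal crypts of 2 mice, 10 weeks old, that carried Cbl flox/flox, Cbl-b flox/flox and R26Cre ERT2. Knockout organoids received 4-hydroxy-tamoxifen at 400 nM for 3 days and control organoids did not, so both groups shared the floxed alleles and the inducible Cre, and an effect of the drug cannot be told apart from one of the deletion. The Rosa26 locus drives the Cre in all cell types, not in enteroendocrine cells alone. Each group has 2 libraries (n = 2 each), and p-values measure the spread between these libraries. Same-numbered libraries were taken as coming from the same mouse, which the sample labels do not state. Total depth was 28597336 and 35592468 UMIs in knockouts 1 and 2, and 27855911 and 22139560 UMIs in controls 1 and 2. Members numbered 33 and 51 in the knockout libraries and 37 and 8 in the control libraries, with median depths of 9072 and 9835 UMIs in knockouts and 14052 and 20182 UMIs in controls. No barcode was shared among the members of different libraries, and 2 were shared over all barcodes of the matrices, before the limit on detected genes. A doublet score marked 4 members (3.10%), 1 and 3 in the knockouts and 0 in each control, and these stayed in.

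Enteroendocrine cells are scattered secretory cells of the gut lining that arise from crypt stem cells after a pulse of the transcription factor Neurog3. They package peptide hormones with granins (Chga, Chgb, Scg2) into dense-core granules and release them when nutrients, bile acids or other luminal signals reach receptors and transporters on their surface. Gcg encodes the precursor of the glucagon-like peptides, Cck the gallbladder- and satiety-acting cholecystokinin, Pyy the appetite-reducing peptide YY, and Ghrl the appetite-raising ghrelin; enterochromaffin cells instead make serotonin, through Tph1, and tachykinins from Tac1. Cbl and Cblb encode E3 ubiquitin ligases that direct activated receptor tyrosine kinases such as EGFR to degradation.

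The upstream sequences of the 4 hormone genes that define the members are shown because enteroendocrine basic helix-loop-helix factors such as Neurod1 act through E-boxes. Each is the 250 bases before the start site from RefSeq (GRCm38.p6), all on the minus strand, 5′ to 3′, with capitals marking CAGATG or its reverse complement CATCTG, searched on both strands; no matches overlapped. The windows are chr2:62483654-62483903 for Gcg, chr9:121495695-121495944 for Cck, chr11:102107833-102108082 for Pyy and chr6:113719912-113720161 for Ghrl.
Gcg: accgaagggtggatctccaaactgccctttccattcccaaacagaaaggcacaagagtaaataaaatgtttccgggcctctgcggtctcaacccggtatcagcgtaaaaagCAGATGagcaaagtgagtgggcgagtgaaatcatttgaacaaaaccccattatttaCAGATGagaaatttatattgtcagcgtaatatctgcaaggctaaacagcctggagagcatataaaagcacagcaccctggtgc
Cck: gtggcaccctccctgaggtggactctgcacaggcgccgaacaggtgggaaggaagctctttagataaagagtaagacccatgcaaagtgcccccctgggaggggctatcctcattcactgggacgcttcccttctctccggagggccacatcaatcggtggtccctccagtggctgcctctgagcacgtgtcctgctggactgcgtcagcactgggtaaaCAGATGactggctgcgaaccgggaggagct
Pyy: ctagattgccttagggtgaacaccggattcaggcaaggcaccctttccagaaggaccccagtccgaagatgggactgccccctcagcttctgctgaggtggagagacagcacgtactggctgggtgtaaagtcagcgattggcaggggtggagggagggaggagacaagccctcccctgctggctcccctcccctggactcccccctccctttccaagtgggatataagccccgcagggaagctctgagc
Ghrl: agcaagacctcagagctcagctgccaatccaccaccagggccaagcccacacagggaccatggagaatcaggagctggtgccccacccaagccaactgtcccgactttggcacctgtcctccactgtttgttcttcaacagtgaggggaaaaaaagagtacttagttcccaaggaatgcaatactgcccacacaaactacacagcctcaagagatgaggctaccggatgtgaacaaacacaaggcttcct
Gcg held 2 matches, beginning 139 and 83 bases before the start, and Cck held 1, beginning 30 bases before it. These letters are not in the windows shown for Pyy and Ghrl, which are 1 of 2 RefSeq windows for Pyy and 1 of 4 for Ghrl, those nearest the annotated gene start. For scale, 4745 of 32851 RefSeq mouse promoter windows of this length (14.4%) held 1 of the 2 forms.

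The hormones of the rule were counted in each member, which describes the label and is no support for it. At least 10 UMIs of the 4 hormones together were present in 82 members, 15 members had 1 to 9, and 32 (24.8%) had none, nor any Tac1 or Tph1 UMI. The 32 entered only because 0 equals 0 in the last step of the rule, and they numbered 5 and 14 in the knockout libraries and 10 and 3 in the control libraries. The name therefore describes 82 members by the hormone RNA that chose them. The 32 are granin-positive cells with none of these 4 hormones detected. Of the hormones outside the rule, Sct reached 10 UMIs in 6 of the 32, and Nts and Iapp in 1 each. Just inside the granin threshold, members with 5 or 6 granin UMIs numbered 2 and 0 in knockouts and 3 and 0 in controls. Just outside it, barcodes with 3 or 4 granin UMIs at 500 CPM or more numbered 0 and 1 in knockouts and 0 and 0 in controls. The lowest granin level of a member was 1083 and 762 CPM in knockouts and 685 and 895 CPM in controls.

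Gcg, summed over the members of a library, stood at 31910 and 34922 CPM in knockouts and 33619 and 42431 CPM in controls. Cck stood at 11247 and 14509 CPM in knockouts and 11259 and 28991 CPM in controls. For Gcg and for Cck the groups overlapped. Pyy stood at 6799 and 10826 CPM in knockouts and 9113 and 9831 CPM in controls, which overlapped as well. Ghrl stood at 5680 and 3670 CPM in knockouts and 1125 and 803 CPM in controls. Ghrl helped to choose the members, so this is a description with no test. In control 2 these levels describe 2 cells: 1 member held 80.4% of the Gcg and 83.7% of the Cck UMIs, and another held 78.1% of the Pyy and 88.9% of the Ghrl UMIs.

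The members with a hormone were also counted. Gcg UMIs were found in 19 of 33 and 29 of 51 members of the knockouts and 17 of 37 and 5 of 8 members of the controls. Ghrl UMIs were found in 18 and 19 members of the knockouts and 19 and 4 members of the controls. At 10 or more UMIs, Ghrl was in 15 and 11 members of the knockouts and 9 and 1 members of the controls. Free RNA also gives UMIs in cells that do not make a hormone. Gcg and Ghrl helped to choose the members, so the comparison with such cells is a description. Among barcodes outside the granin threshold, the 10% with the highest enterocyte-gene CPM had a Gcg UMI in 2.50% and 5.38% of cases in knockouts and 9.91% and 4.41% in controls. A Ghrl UMI was in 0.625% and 0% of them in knockouts and 0.901% and 0% in controls. The members' shares for both hormones were above these levels in every library, at median depths of 9072 and 9835 UMIs in knockout members and 14052 and 20182 UMIs in control members, against 5654 and 8902 UMIs in those barcodes of knockouts and 10462 and 18629 UMIs in those of controls. Thinned to 10000 UMIs each, which left out 22 and 26 shallower members in knockouts and 10 and 2 in controls, members had a Gcg UMI in 81.8% and 80.0% of cases in knockouts and 40.7% and 66.7% in controls. The knockout shares were the higher ones after thinning and overlapped the control shares before it.

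Single members carried very large amounts of hormone RNA. The 4 hormones together made up 6.12% of all UMIs of the members and up to 26.6% of those of a single cell, and in the median member 1.71%. The highest Gcg count in a member was 1991 and 2158 UMIs in the knockouts and 2773 and 5348 UMIs in the controls. Each UMI counts 1 captured molecule, and capture was not compared between genes. Counts of different hormones therefore rank molecules captured and not transcript levels. On that scale Gcg had the most UMIs of the 4 in 47 members, Ghrl in 13, Pyy in 12 and Cck in 11, among cells where that hormone had at least 10 UMIs and with 1 tie counted for both.

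**Figure D1:**
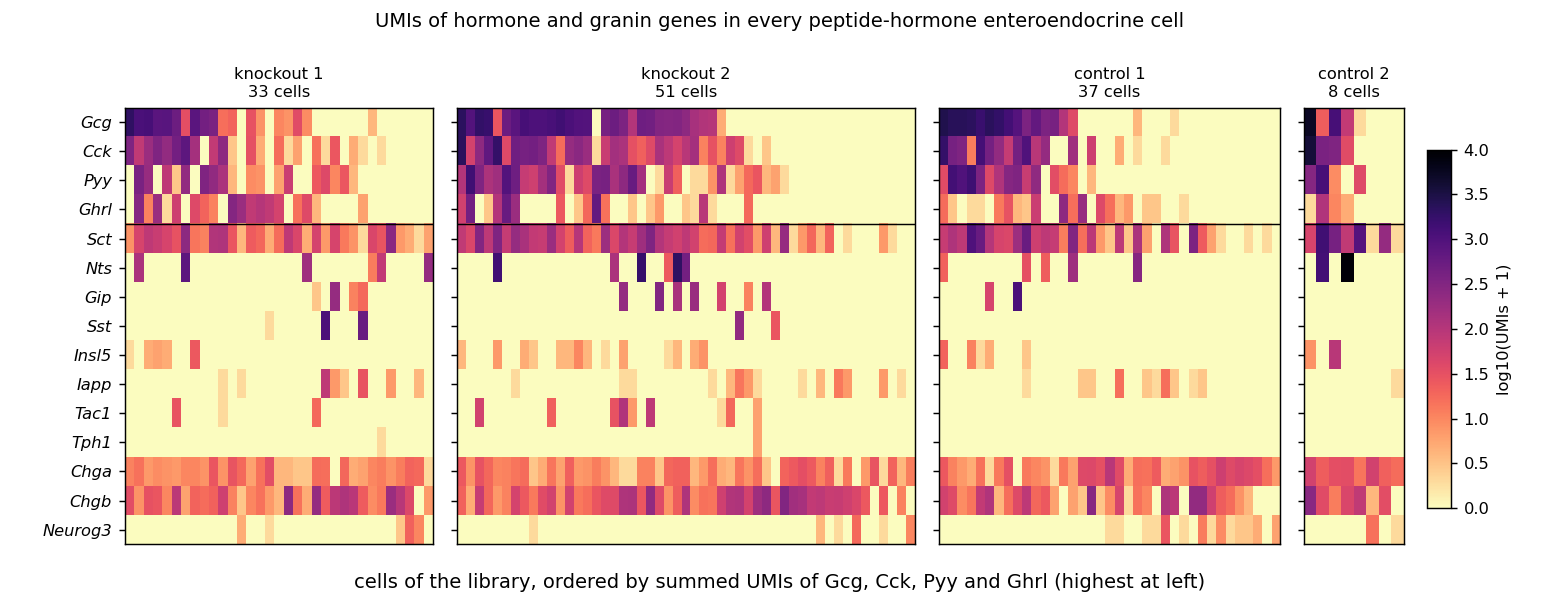
Hormone, granin and Neurog3 UMIs in each of the 129 members, as log10(UMIs + 1), with a panel for each library and the cells ordered by their UMIs of Gcg, Cck, Pyy and Ghrl. The cells at the end of each panel with no UMI of the 4 hormones are the ones in which the Neurog3 row is most often filled, in 18 of 32 cells against 1 of the 61 cells at 10 or more Gcg UMIs.

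Most hormone-positive members made more than 1 hormone. Taking 10 UMIs as the limit, 16 members had 1 of the 4 hormones, 18 had 2, 32 had 3 and 16 had all 4. Cck passed this limit in 63 members, Gcg in 61, Pyy in 52 and Ghrl in 36. Gcg and Cck passed together in 56 members, which is 91.8% of the Gcg cells and 88.9% of the Cck cells. Gcg and Pyy passed together in 43 members, Cck and Pyy in 42, Gcg and Ghrl in 26, Cck and Ghrl in 23, and Pyy and Ghrl in 20. Over the 82 members with at least 10 hormone UMIs, the Spearman correlation of Gcg with Cck as a share of the cell's UMIs was 0.588, and 0.604, 0.575 and 0.422 in knockout 1, knockout 2 and control 1. Gcg and Ghrl had a correlation of −0.0666 over the same cells. Cells of a library share its depth and free RNA, so these are descriptions and no p is given.

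Hormones that the rule did not use were found in the members too. Sct, the precursor of secretin, which drives bicarbonate release from the pancreas, was detected in 117 members (90.7%) and reached 10 UMIs in 88. Its level was 5707 and 6041 CPM in knockouts and 7157 and 19319 CPM in controls. Sct was in all 61 members at 10 or more Gcg UMIs and in 22 of the 32 with no hormone UMI. Its UMIs were also in 5.63% and 23.7% of the enterocyte-rich barcodes of knockouts and 22.5% and 42.6% of those of controls, and the members' shares were above these in every library, at 100% and 88.2% in knockouts and 83.8% and 100% in controls. After thinning they were 100% and 92.0% in knockouts and 81.5% and 83.3% in controls, against 6.52% and 19.2% of the thinned enterocyte-rich barcodes of knockouts and 15.3% and 29.8% of those of controls.

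Nts, the precursor of neurotensin, was found in few cells at very high counts: 19 members, each with at least 10 UMIs, 14 of them also Gcg cells. Its summed level was 5128 and 9756 CPM in knockouts and 921 and 65091 CPM in controls. A single cell of control 2 held 8886 Nts UMIs, 36.5% of its RNA, so the value of control 2 rests mainly on that cell. Gip, which encodes the glucose-dependent insulinotropic peptide, reached 10 UMIs in 12 members, 6 of them Gcg cells, with 230 and 1018 UMIs in knockouts and 1132 and 0 UMIs in controls. Insl5, an insulin-family peptide of the distal gut, was detected in 26 members, all within the 61 Gcg cells.

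Sst, the precursor of the inhibitory peptide somatostatin made by D cells, had 1636 and 253 UMIs in the members of the knockouts and 0 and 0 UMIs in those of the controls. These UMIs came from 5 cells, and 4 of them had 10 or more, with 551, 1084, 226 and 27 UMIs, up to 20.0% of a cell's RNA. None of the 4 had a Gcg UMI. Tac1, which counts against a barcode in the rule, was still found in 12 members, 3 and 9 in the knockouts and 0 and 0 in the controls, and 6 of them reached 10 UMIs of both Tac1 and Gcg. The 2 Sst cells of knockout 1 also held 109 of the 128 UMIs of Iapp (amylin precursor) in that library, and those of knockout 2 held 13 of 56.

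**Figure D2:**
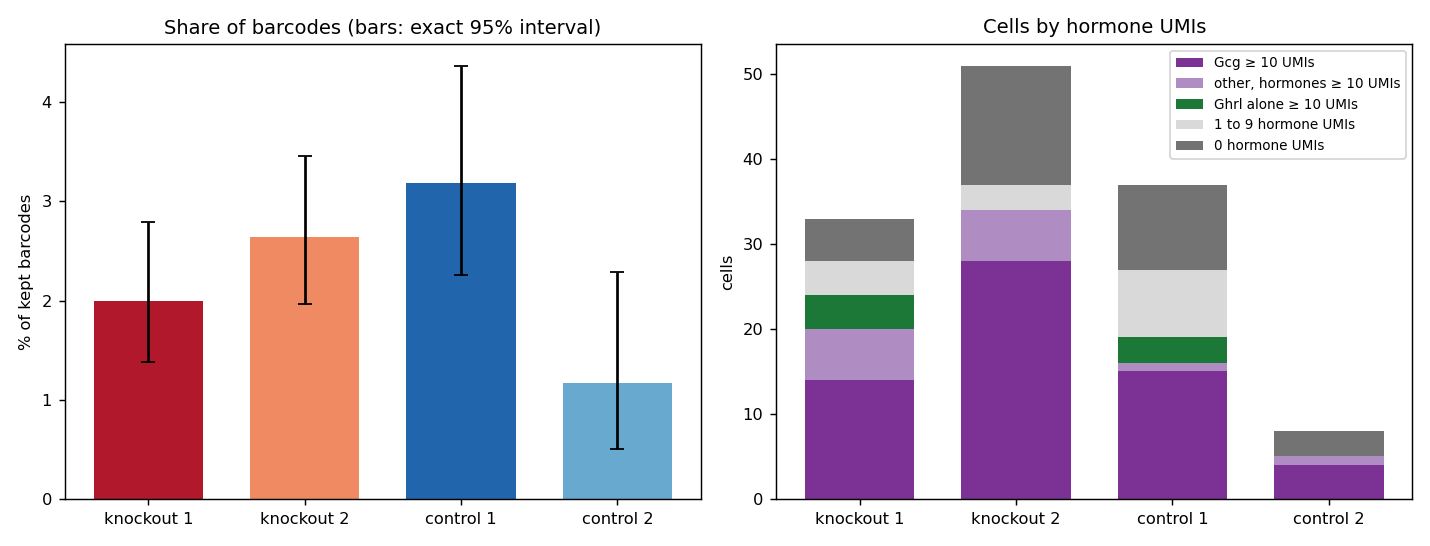
Left, members as a percentage of kept barcodes in each library with exact 95% binomial intervals; right, the number of members of each library in 5 subsets set by hormone UMIs. The knockout shares of 2.00% and 2.64% lie between the control shares of 1.17% and 3.19%, and the subset with no hormone UMI is present in all 4 libraries.

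The members were next described by hormone content. The subsets were 61 members with at least 10 Gcg UMIs (14 and 28 in knockouts, 15 and 4 in controls), 7 with Ghrl alone at that limit (4 and 0, 3 and 0), 14 with other hormone patterns at 10 or more UMIs (6 and 6, 1 and 1), 15 with 1 to 9 hormone UMIs and the 32 with none. The subsets were cut from measured hormones and share libraries, so the levels below are pooled CPM without a test.

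Members without hormone UMIs carried early enteroendocrine factors. Neurog3, the transient factor that commits crypt progenitors to this lineage, was detected in 18 of the 32 at 292 CPM, in 5 of the 15 with 1 to 9 hormone UMIs at 181 CPM (all 5 in control 1, with 27 of the 31 UMIs in a single cell), in 3 of the 7 Ghrl cells at 98.5 CPM, in 0 of the 14 with other patterns, and in 1 of the 61 Gcg cells at 1.21 CPM. In the cells without hormone UMIs it stood at 791 and 211 CPM in knockouts and 222 and 367 CPM in controls, so every library showed it. Sox4, a factor upstream of endocrine commitment, stood at 1017 CPM in these cells and 137 CPM in the Gcg cells. Pax4, a further early endocrine factor, was detected in 11 of the 32 and in 4 of the 61. Neurod1, which follows Neurog3 and stays on, was in 30 of the 32 and 57 of the 61, at 474 and 572 CPM, and Insm1, a zinc-finger factor of endocrine differentiation, was at 624 and 400 CPM.

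Genes of hormone handling were mostly at higher levels in Gcg cells than in cells without hormone UMIs: 7 of 11 hormone-processing genes were, 3 (Furin, Ctsl and Mboat4) were lower and 1 was at 0 in both, and all 11 granule cargo genes outside the rule were higher. Among Gcg cells, Cpe, the carboxypeptidase that trims prohormones, stood at 2056 CPM against 282 CPM in cells without hormone UMIs, and Pam, which amidates peptides such as peptide YY, at 420 CPM against 23.7 CPM. Pcsk1, the prohormone convertase that releases glucagon-like peptides, stood at 494 CPM against 192 CPM. Qpct, which cyclises N-terminal glutamine, was detected in 39 of the 61 Gcg cells and 0 of the 32. Scg2, a granin, stood at 1830 CPM against 81.7 CPM, and Resp18, a granule protein, at 870 CPM against 42.1 CPM. The granins of the rule went the other way, with Chga at 890 CPM in Gcg cells and 1723 CPM in cells without hormone UMIs, and Chgb at 2857 CPM and 4302 CPM.

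Of 30 receptors and transporters for nutrients and peptides, 19 were at higher levels in Gcg cells than in cells without hormone UMIs, 5 were lower and 6 were at 0 in both. Ffar1, the receptor for long-chain fatty acids, was detected in 59 of 61 Gcg cells, 9 of 14 cells of other patterns, 2 of 7 Ghrl cells and 3 of 32 cells without hormone UMIs. Gpbar1, the bile acid receptor, was detected in 40, 1, 0 and 1 of the same cells, and Gpr119, which senses lipid amides and monoacylglycerols, in 40, 4, 1 and 0. Reg4, a secreted lectin, stood at 8621 CPM in Gcg cells and 65.7 CPM in Ghrl cells. The 7 Ghrl cells had their own levels: Isl1, a factor of several gut hormone cells, at 1018 CPM against 339 CPM in Gcg cells, and Mboat4, the acyltransferase that activates ghrelin, in 6 of 7 cells against 9 of 61. They were found in 1 knockout and 1 control library. The 15 cells with 1 to 9 hormone UMIs include 1 that holds 119 of the 152 Muc2 UMIs of all members, and Muc2 is the main mucin of goblet cells.

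**Figure D3:**
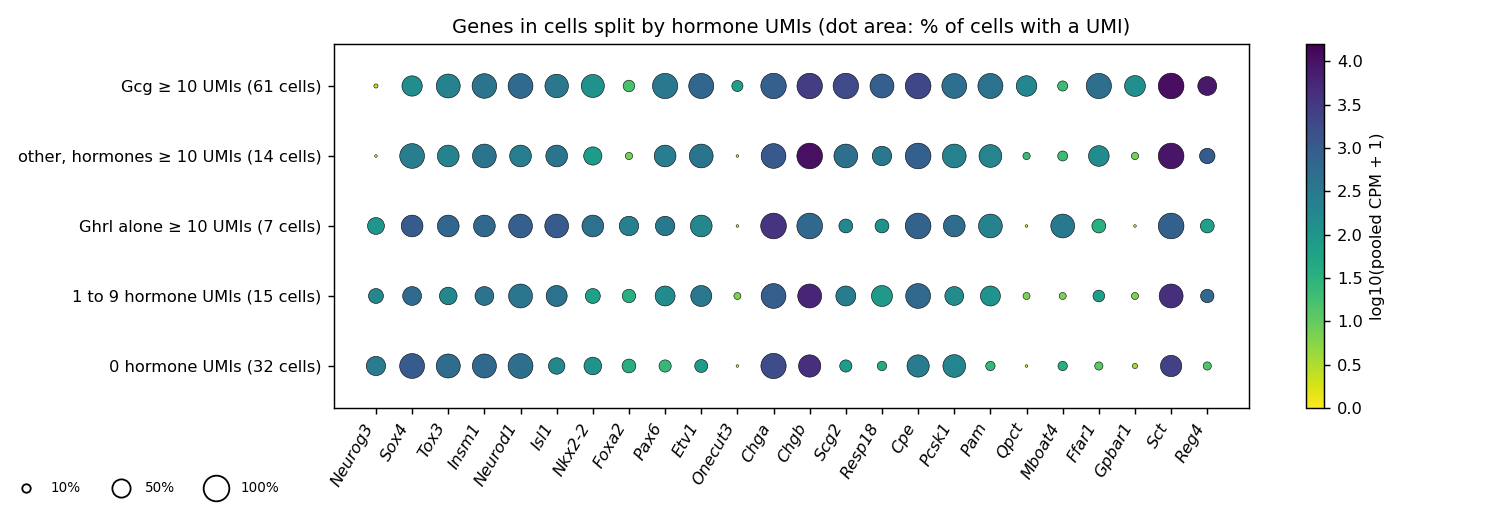
Genes by hormone subset, pooled over libraries: dot area is the percentage of cells with a UMI and colour is log10 of pooled CPM + 1. Rows run from Gcg cells (61) through other hormone patterns (14), Ghrl alone (7) and 1 to 9 hormone UMIs (15) to none (32); Neurog3 and Sox4 are marked in the lower rows and Ffar1, Gpbar1, Qpct and Scg2 in the top row.

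Members were then compared with enterochromaffin-type cells of the same libraries. The 58 enterochromaffin-type cells numbered 20 and 24 in knockouts and 13 and 1 in controls, so that class in control 2 is a single barcode of 11366 UMIs. UMIs were summed per library and class and tested with edgeR's quasi-likelihood test with the library as a block. Of 5225 genes tested, 159 (3.04%) were higher and 81 (1.55%) were lower in members at an adjusted p under 0.05, and the median log2 fold change of all genes was 0.02. These shares are the scale for the list counts below. A gene that passed the low-count filter through 1 class alone had to be higher in that class. The 2 classes were separated on hormone UMIs, so genes that go with these hormones had to differ, and members include the 32 cells without them. The counts depended on the library left out: 61 higher and 19 lower without control 1, 82 and 55 without knockout 1, and 172 and 130 without knockout 2. DESeq2 called 102 and 53.

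Some transcription factors differed between the 2 classes: of 29 tested, 5 were higher and 2 lower in members, with a median log2 fold change of 0.19. Over all genes tested 3.04% were higher and 1.55% lower. The counts include Isl1, Onecut3 and Lmx1a, whose direction was set by the low-count filter. Isl1 was at 536, 255, 404 and 102 CPM in members of knockouts 1 and 2 and controls 1 and 2, against 4.53, 25.6, 0 and 0 CPM in enterochromaffin-type cells, a log2 fold change of 5.37 ± 0.52 (SE; edgeR adjusted p = 5.79e-08). The classes did not overlap for Isl1, which passed the low-count filter through the members alone and had to be higher there. Pax6, a factor that acts on the Gcg gene, was at 346, 161, 264 and 134 CPM in members against 31.7, 66.5, 68.9 and 176 CPM (2.07 ± 0.35, edgeR adjusted p = 2.99e-04), and only in control 2, with its 1 enterochromaffin-type cell, was it not higher. Etv1 was higher by 2.91 ± 0.41 (edgeR adjusted p = 2.31e-05). Onecut3 had 56 UMIs in members and 0 in enterochromaffin-type cells, at least 7.95-fold higher against a floor of 3 UMIs over all libraries. It passed the low-count filter through the members alone and had to be higher there. Lmx1a, the factor of the serotonin-making fate, had 2 UMIs in members against 69, a ratio of 0.0123 (95% counting interval 0.00147 to 0.0463). It passed the low-count filter through the enterochromaffin-type cells alone and had to be lower in members. Foxa1 was also lower, by a log2 fold change of −1.36 ± 0.29 (edgeR adjusted p = 0.00387), but without control 1 its adjusted p was 0.0595. Neurod1 (0.93, adjusted p = 0.0881) and Neurog3 (−0.93 ± 0.33, adjusted p = 0.13, both edgeR) did not pass.

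Among the remaining gut hormones, 9 were tested, 6 were higher and 1 lower, with a median of 4.64. Sct was at 5707, 6041, 7157 and 19319 CPM in members against 398, 1616, 1212 and 616 CPM, a log2 fold change of 3.34 ± 0.51 (edgeR adjusted p = 6.78e-05). Nts, Gip, Sst and Insl5 had 0 UMIs in enterochromaffin-type cells. They passed the low-count filter through the members alone and had to be higher there. The count of higher hormones and the median include them. Against the floor of 3 UMIs they were at least 2531-fold, 338-fold, 268-fold and 32.6-fold higher in members, and Gal, the precursor of galanin, was higher as well. Of the 17831 Nts UMIs 8886 were in a single cell, and without control 2 the Nts bound was 1181-fold. Gip and Sst each rested on few members and did not pass with DESeq2 (adjusted p = 0.0989 and 0.892). Ucn3, which encodes a corticotropin-releasing-factor family peptide, was at 23.3, 6.76, 8.64 and 0 CPM in members against 58.8, 92.0, 162 and 264 CPM, lower in every library (−3.37 ± 0.49, edgeR adjusted p = 3.86e-05). Without control 1 its edgeR adjusted p was 0.0598. It passed the low-count filter through the enterochromaffin-type cells alone and had to be lower in members.

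Of the 30 receptors and transporters, 8 passed the low-count filter; 6 of these were higher in members and 1 was lower, with a median of 2.65. A gene that passed the filter only through the members, such as Gpbar1, Ffar1 or Gpr119, had to be higher there, so the count is read for those genes alone. Ffar1 was at 396, 271, 247 and 242 CPM in members against 4.53, 30.7, 0 and 0 CPM (4.84 ± 0.49, edgeR adjusted p = 1.41e-07), with no overlap. Gpr119 had 116 UMIs against 2 (ratio 24.7, 95% counting interval 6.69 to 206), Gpbar1 had 113 against 0 (at least 16.0-fold), and Ffar4, a second long-chain fatty acid receptor, had 67 against 3 (ratio 9.51, 3.12 to 47.3). Slc15a1, the di- and tripeptide transporter, was at 109, 152, 77.7 and 204 CPM in members against 4.53, 51.1, 4.05 and 440 CPM (2.14 ± 0.46, edgeR adjusted p = 0.00355), and the 1 barcode of control 2 was the exception. Slc5a1, the sodium-glucose transporter through which glucose triggers release, was at 264, 201, 247 and 312 CPM against 45.3, 153, 56.7 and 0 CPM (1.72 ± 0.36, edgeR adjusted p = 0.00289). Both transporters lost the call without control 1, at adjusted p = 0.236 for Slc15a1 and 0.19 for Slc5a1. The lower receptor, Olfr558, had 2 UMIs in members against 53 in enterochromaffin-type cells, where it is known as a sensor of short fatty acids such as isovalerate. It passed the filter through the enterochromaffin-type cells alone and had to be lower in members.

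Of 8 hormone-processing genes tested 4 were higher and none lower (median 1.01), and of 9 granins and granule cargo genes 4 were higher and none lower (median 0.82). Over all genes tested 3.04% were higher and 1.55% lower. Some of these calls were lost under other settings. Pcsk1n and Scg5 did not pass with DESeq2 (adjusted p = 0.137 and 0.0551), and Fam183b of the cargo genes did not without control 1 (edgeR adjusted p = 0.33). Scg2 was at 1430, 1113, 715 and 1505 CPM in members against 76.9, 148, 56.7 and 352 CPM (3.52 ± 0.35, edgeR adjusted p = 1.19e-07). Resp18 was at 1072, 455, 276 and 638 CPM against 208, 153, 101 and 88.0 CPM (1.97 ± 0.31, edgeR adjusted p = 1.23e-04). Both were higher in members of every library. Qpct had 155 UMIs against 1 (ratio 66.0, 95% counting interval 11.7 to 2624). It passed the low-count filter through the members and had to be higher there. Cpe was at 1682, 1351, 1056 and 1511 CPM against 439, 588, 389 and 880 CPM (1.58 ± 0.32, edgeR adjusted p = 0.0018), but its adjusted p was 0.0825 without control 1. Pcsk1 did not pass, at 0.56 ± 0.35 (edgeR adjusted p = 0.56).

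Genes of the release machinery and of serotonin storage were partly lower. Of 14 exocytosis genes tested 1 was higher and 2 lower (median −0.16). Rab3c, a vesicle GTPase, was at 73.8, 60.9, 88.1 and 70.1 CPM in members against 434, 598, 357 and 880 CPM (−2.60 ± 0.29, edgeR adjusted p = 6.22e-07). Of 6 ion-channel genes 1 was higher and 1 lower: Abcc8, the sulfonylurea-receptor subunit of the ATP-sensitive potassium channel, had 157 UMIs against 0 (at least 22.3-fold higher). Scn3a, a voltage-gated sodium channel, was at 97.1, 151, 82.9 and 108 CPM in members against 434, 583, 482 and 704 CPM (−2.12 ± 0.28, edgeR adjusted p = 8.40e-06). Slc18a1, the vesicular monoamine transporter, was at 69.9, 86.2, 63.9 and 70.1 CPM against 330, 327, 272 and 440 CPM (−1.997 ± 0.28, edgeR adjusted p = 2.17e-05), and among 9 serotonin-pathway genes it was the 1 lower call, while Rgs4, a regulator of G-protein signalling, was the 1 higher call (3.21 ± 0.58, edgeR adjusted p = 5.53e-04; adjusted p = 0.0968 without control 1). All 3 genes were lower in members of each library without overlap. Tpbg, a membrane glycoprotein, with 2 UMIs in members against 120, and Cwh43, with 1 against 78, were among the lower genes with the largest fold changes. Outside the lists, Map2, a microtubule-associated protein of neurites, had 116 UMIs in members against 0 (at least 16.5-fold), Unc80, a subunit of a sodium leak channel, 95 against 0 (at least 13.5-fold), and the membrane proteins Mal and Upk1b 84 and 78 against 0. Pkp4, a desmosomal-family protein, was at 11.7, 35.5, 15.6 and 12.8 CPM in members against 127, 169, 174 and 1056 CPM, and the cation channel gene Trpm2 had 6 UMIs against 34. Each of these 6 passed edgeR's test. They were named for going the same way in all libraries, so that order was fixed by the choice. Abcc8, Map2, Unc80, Mal and Upk1b had 0 UMIs in enterochromaffin-type cells. Those genes passed the low-count filter through the members alone and had to be higher there. Tpbg, Cwh43, Pkp4 and Trpm2 passed it through the enterochromaffin-type cells alone and had to be lower in members.

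**Figure D4:**
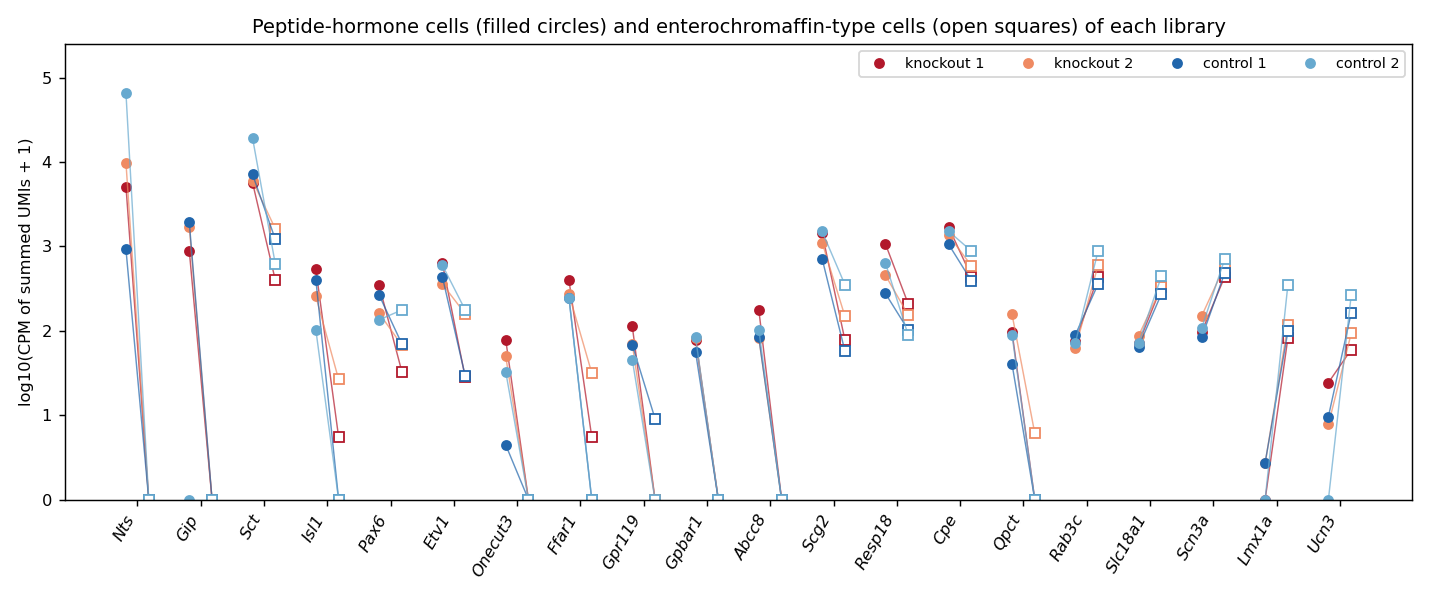
Levels per library, as log10(CPM + 1), of 20 genes in members (circles) and enterochromaffin-type cells (squares). Isl1 and Ffar1 lie higher in members and Rab3c, Scn3a and Slc18a1 lower in each of the 4 libraries; the control 2 squares are a single barcode.

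Markers of other secretory cells moved with this comparison. All 5 goblet markers tested were higher in members, 3 of 5 Paneth markers were higher and 1 lower, and Agr2, an endoplasmic-reticulum protein of mucus cells, was at 1239, 2562, 805 and 1256 CPM in members against 181, 86.9, 44.6 and 0 CPM (4.04 ± 0.43, edgeR adjusted p = 3.86e-07). The summed level of the 8 goblet markers was 2642 to 5185 CPM in members, 377 to 961 CPM in enterochromaffin-type cells and 4734 to 10353 CPM in the barcodes outside the granin threshold. Among members Spdef was at 0 in knockout 1, Zg16 in knockout 2, and Muc2, Zg16 and Spdef in control 2. In control 1 the goblet markers had 2668 UMIs in members. A single member held 119 Muc2, 415 Spink4 and 772 Tff3 UMIs of these, and the doublet score did not mark it. The 8 Paneth markers summed to 1052 to 4470 CPM in members, 528 to 1467 CPM in enterochromaffin-type cells and 19909 to 29014 CPM in the rest. Their part in the other differences was not tested. Some of these calls were lost under other settings: Muc2 (adjusted p = 0.977) and Fcgbp (0.0683) with DESeq2, Spink4 (0.103) and Fcgbp (0.393) without control 1, and the Paneth genes Defa24 (0.875) and Itln1 (0.0896) with the marked doublets removed. Tuft, immune and mesenchymal markers summed to at most 8.46 CPM in members, and endothelial markers to at most 6.76 CPM. Glial and neuronal markers stood at 19.4 and 11.8 CPM in knockout members and 22.5 and 6.38 CPM in control members. Cdkn1a, a p53 target that halts the cell cycle, was at 649, 741, 909 and 797 CPM in members against 204, 76.7, 126 and 88.0 CPM (2.67 ± 0.35, edgeR adjusted p = 8.40e-06).

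Knockout members were then compared with control members, beginning with the targeted genes. In members, Cbl (chr9:44142976-44234049, GRCm38) had 7 and 13 UMIs in knockouts and 17 and 4 UMIs in controls, or 27.2 and 22.0 CPM against 29.4 and 25.5 CPM. Cblb (chr16:52031225-52208048) had 8 and 1 UMIs in knockouts and 20 and 1 UMIs in controls, or 31.1 and 1.69 CPM against 34.6 and 6.38 CPM. The log2 fold changes were −0.34 ± 0.48 for Cbl and −1.25 ± 0.98 for Cblb (edgeR adjusted p = 1 for both), and the groups overlapped for both genes. So few UMIs do not show the deletion in the members, and which exons the counted reads cover is not given in the sources used here. In the 5242 barcodes outside the granin threshold Cbl was at 12.1 and 10.1 CPM in knockouts and 16.6 and 19.9 CPM in controls, and Cblb at 2.96 and 0.403 CPM in knockouts and 7.41 and 3.92 CPM in controls, lower in both knockout libraries.

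The share of barcodes that were members did not separate the groups. It was 2.00% (exact 95% interval 1.38 to 2.80) and 2.64% (1.97 to 3.45) in knockouts, and 3.19% (2.26 to 4.37) and 1.17% (0.505 to 2.28) in controls. The means were 2.32% ± 0.451 in knockouts and 2.18% ± 1.43 in controls (SD, n = 2 each; difference 0.141 percentage points, exact permutation p = 1, two-sided, with 0.33 the smallest p this design allows). Between the libraries numbered 1 the knockout share was −1.19 percentage points from the control share. Between those numbered 2 it was 1.47 points from it, so the 2 pairs went opposite ways. With each barcode thinned to 10000 UMIs the difference was −0.754 points, without knockout 2 it was −0.178 points, and without control 2 it was −0.870 points.

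No gene passed the test between knockout and control members. Of 6305 genes tested with edgeR, 0 were higher and 0 lower (0%) at an adjusted p under 0.05, against 187 at an unadjusted p under 0.05 (98 higher and 89 lower), and DESeq2 also called 0, with 36 at an unadjusted p under 0.05. The smallest adjusted p was 0.744. Leaving out a library, which rests on a lone sample in 1 group assumed to vary like the other group, gave 34 higher and 45 lower genes without control 1, 25 and 19 without control 2, 20 and 16 without knockout 1, and 1 and 0 without knockout 2. With the library number as a block (the replicate block), 2 genes were higher (0.0317%) and 0 were lower. The higher genes were Sst (edgeR adjusted p = 4.39e-04) and Iapp (2.74 ± 0.38, edgeR adjusted p = 0.0442). The Sst UMIs of the knockouts, from the 5 cells described above, are at least 546-fold over the control floor of 3 UMIs. Sst passed the low-count filter through the knockouts alone, and its p rests on those few cells. Iapp was at 497 and 94.7 CPM in knockouts and 74.3 and 6.38 CPM in controls. Without the 4 Sst cells, left out after the data were seen, Iapp was at 77.9 and 73.2 CPM in knockouts and 74.3 and 6.38 CPM in controls, and the groups overlapped.

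The genes with the smallest unadjusted p did not pass, and 9 of them are given as values. With no filter on low counts, 7 of the 9 and Iapp passed edgeR's test on group alone (adjusted p = 1.34e-48 for Sst, 0.00338 for Papss2, 5.20e-04 for Hoxb5os and Msx1, 0.0176 for Gdf15, 0.0111 for Fcgbp, 0.0365 for Sis and 1.27e-06 for Iapp), and each of these 8 also passed with at least 1 library left out. Besides Sst, 4 had higher levels in knockout members. Papss2, which makes the sulfate donor of sulfotransferases, was at 85.5 and 79.5 CPM in knockouts and 15.6 and 19.1 CPM in controls (log2 fold change 2.20 ± 0.40). Hoxb5os, an antisense transcript of the Hoxb cluster, was at 50.5 and 71.0 CPM in knockouts and 8.64 and 6.38 CPM in controls (2.82 ± 0.52); the strand setting of the counting is not given in the sources used here. For both, edgeR's adjusted p was 0.744. They were named for their small unadjusted p, so the order of their libraries adds no evidence. Gdf15, a stress-induced peptide of the TGF-beta family, was at 105 and 72.7 CPM in knockouts and 22.5 and 19.1 CPM in controls, and Msx1, a homeobox factor, at 140 and 60.9 CPM in knockouts and 17.3 and 12.8 CPM in controls (edgeR adjusted p = 1 for both).

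Those with lower levels included Sis, Fcgbp, Gadd45a and Rc3h2, each at an edgeR adjusted p of 1. Sis, the brush-border sucrase-isomaltase, was at 680 and 391 CPM in knockouts and 971 and 1505 CPM in controls (−1.39 ± 0.37). The 8 enterocyte markers, summed over members, were at 874 and 756 CPM in knockouts and 1137 and 1887 CPM in controls. Sis is 1 of the 8 and makes up most of this sum in each library. The sum therefore largely repeats the Sis values and is no separate evidence about enterocyte RNA, whose part in these values was not tested. Fcgbp, a mucus protein, was at 101 and 132 CPM in knockouts and 351 and 210 CPM in controls, with 162 of the 203 UMIs of control 1 in a single cell. Gadd45a, a growth-arrest gene, was at 225 and 208 CPM in knockouts and 416 and 357 CPM in controls, and Rc3h2, an RNA-binding ubiquitin ligase, at 42.7 and 32.1 CPM in knockouts and 84.7 and 89.3 CPM in controls.

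**Figure D5:**
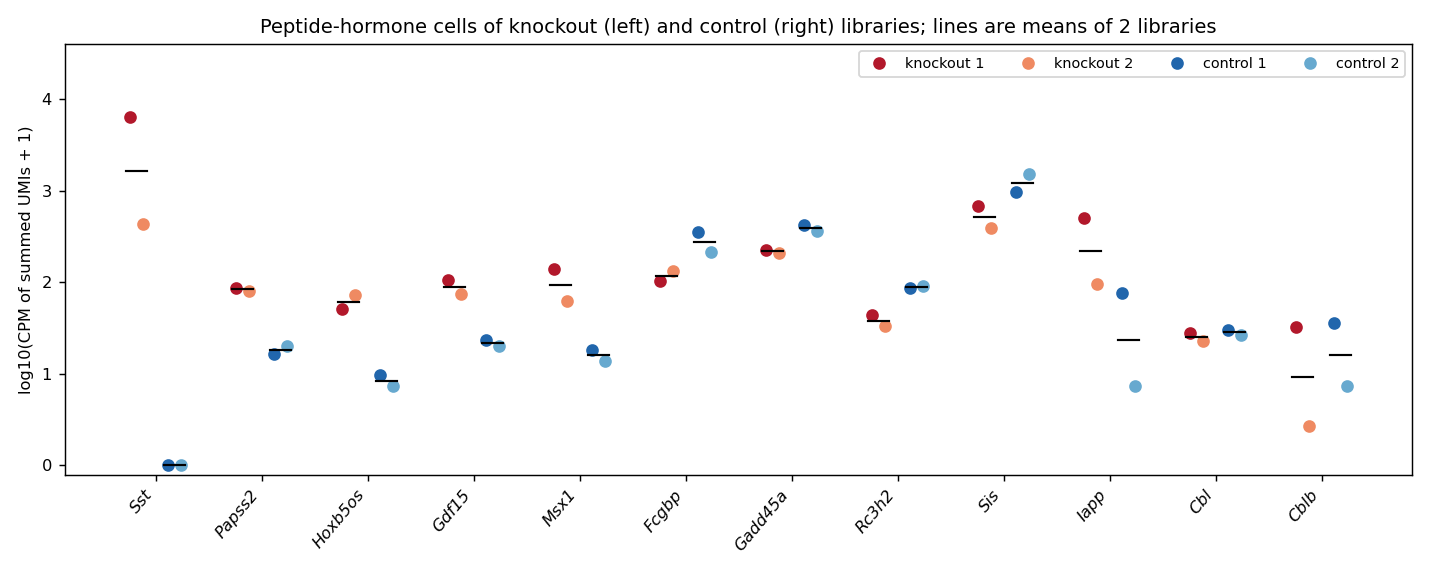
Levels in members per library, as log10(CPM + 1), for 9 genes with the smallest unadjusted p between knockout and control, with Iapp, Cbl and Cblb; lines mark the mean of 2 libraries. Papss2 lies at 85.5 and 79.5 CPM in knockouts above 15.6 and 19.1 CPM in controls, while Cblb overlaps; no gene passed the test on group alone at the low-count filter used.

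Gene groups were also read as counts, and none of their members was called, against 0% over all genes. Of 11 tested genes of the EGFR family and Cbl partners, 3 had a positive log2 fold change and the median was −0.21, beside −0.00 and 49.8% positive over all 6305 genes. Of 8 ERK feedback genes, transcribed when this pathway is active, 6 were positive with a median of 0.63. Of 17 genes of secretory-pathway stress 14 were positive with a median of 0.24. Of 32 enteroendocrine transcription factors 10 were positive with a median of −0.16, of 9 granins and granule genes 7 were positive with a median of 0.29, and of 9 hormone-processing genes the median was −0.15. The 3 tested cycling markers had a median of −1.21, with summed levels of 35.0 and 172 CPM in knockouts and 396 and 12.8 CPM in controls, where the groups overlapped.

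The difference between knockout and control in members was set against that in the barcodes outside the granin threshold by the interaction of class and group in edgeR, with the library as a block. Of 12969 genes tested 20 had a higher knockout-minus-control difference in members (0.154%) and 17 a lower one (0.131%), and DESeq2 called 1 and 0. With the library number as a block the counts were 20 and 6. They were 10 and 7 without knockout 1, 28 and 32 without knockout 2, 37 and 20 without control 1, and 12 and 17 without control 2. Cyp4b1, a fatty acid-oxidising cytochrome P450, was at 361 and 353 CPM in knockout members and 192 and 38.3 CPM in control members. In the other barcodes it was at 8.87 and 18.03 CPM in knockouts and 22.7 and 61.5 CPM in controls, so the group order was opposite in the 2 classes (log2 difference between the classes 2.73, edgeR adjusted p = 9.51e-11). Papss2 in the other barcodes was at 12.4 and 17.2 CPM in knockouts and 22.8 and 27.8 CPM in controls, again opposite to its members (2.89, edgeR adjusted p = 3.56e-05). DESeq2 did not call either gene (adjusted p = 1 and 0.136), and the other alternatives run kept both. Neurog3 was at 140 and 54.1 CPM in knockout members and 114 and 95.6 CPM in control members, and at 8.83 and 5.21 CPM in the other knockout barcodes and 3.59 and 0.410 CPM in the other control barcodes (−2.10), so the groups overlapped in members and did not in the other barcodes.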

How the data were processed

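Single-cell RNA-seq libraries (10x Genomics) of 4 organoid cultures were used as the matrices of UMI counts that the authors deposited, raw and not normalized; they were made with Cell Ranger 3.0.1 on mm10, per the submitters' processing notes, while the matrix headers give software version 3.0.0. The annotation release is not given in the sources used here, and whether the authors filtered doublets is not given either. Each matrix has 31040 features. Intervals and floors cover counting error only.

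Barcodes with 500 or more detected genes were kept (1650 and 1933 in knockouts, 1160 and 686 in controls). Members were chosen by the rule in the opening, and the members and gene lists were chosen with earlier results of these data known. Raw counts were summed per library and class, since cells are not replicates, and tested with edgeR 4.0.16 (R 4.3.3): TMM, filterByExpr, the quasi-likelihood test, 2-sided, with Benjamini-Hochberg adjustment over all genes tested at 0.05. The 8 genes of the rule entered the fit and were given no test. The knockout test used group alone; the other tests used the library as a block. Alternatives were DESeq2 1.42.0, no filter on low counts, each library left out, the replicate block, no library block, doublets removed (Scrublet in scanpy 1.11.5), 10 granin UMIs, a 3-fold hormone ratio, shares thinned to 10000 UMIs, and, chosen after seeing the data, members with 10 or more hormone UMIs. The scripts were tested on simulated data. CPM of summed UMIs is descriptive. A fold against a class at 0 used a floor of 3 UMIs over the class.

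Same-numbered libraries are taken as pairs because the design names 2 mice and each number occurs once per group; over 6312 genes the deviations of same-numbered libraries from their group means had a correlation of −0.0753. Replicate libraries differed by more than sampling noise (chi-square per degree of freedom 3.07 for knockouts and 8.17 for controls). Named genes were all genes of the lists, plus the 10 called genes with the largest fold change in each direction among those of average log2 CPM of at least 5 that went the same way in all libraries or both numbers, or, where none passed, the 5 in each direction with the smallest p. Some genes are not reported here. Sequences are from RefSeq; Python 3.11.15 with scipy 1.17.1 and matplotlib 3.10.9 made the exact tests and figures.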

Additional observations from a re-analysis of the deposited data

Results flagged for a closer look

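The difference between knockout and control in members departed from that in the barcodes outside the granin threshold for 20 genes upward and 17 downward by edgeR's test of the interaction, and the 21 of them that belong to the gene lists or met the naming rule are given; DESeq2 called 1 of the 21. Values are the difference in members minus that in the other barcodes, on the log2 scale. The difference was positive for Clca4b (10.26), Gip (4.77), Dpep1 (4.31), Ces2a (3.71), Mttp (3.61), Iapp (3.37), Papss2 (2.89), Cyp4b1 (2.73), Apoa1 (2.63), Lyz1 (2.44), Gstm1 (2.35) and Fosb (2.27). It was negative for Insm1 (−1.59), Muc2 (−1.86), Top2a (−1.93), Neurog3 (−2.10), Ifitm3 (−2.34), Nts (−3.97), Zg16 (−5.00), Clca1 (−5.57) and Cdkn3 (−10.34).

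Most of these calls rested on few UMIs or on 1 library. Cyp4b1 had 93 and 209 UMIs in knockout members and 111 and 6 in control members, and Papss2 had 22 and 47 in knockouts and 9 and 3 in controls. Clca4b had 0 and 11 UMIs in knockout members and 0 and 0 in control members, Dpep1 1 and 13 in knockouts and 1 and 0 in controls, and Apoa1 1 and 101 in knockouts and 5 and 9 in controls. Ces2a had 10 and 11 UMIs in knockout members and 2 and 1 in control members, and Mttp 8 and 8 in knockouts and 2 and 0 in controls. Lyz1, the Paneth-cell lysozyme, had 134 and 686 UMIs in knockout members and 135 and 9 in control members. Cdkn3 had 0 and 0 UMIs in knockout members and 11 and 0 in control members. Zg16 had 1 and 0 in knockouts and 36 and 0 in controls, Clca1 1 and 1 in knockouts and 85 and 1 in controls, and Muc2 1 and 32 in knockouts and 119 and 0 in controls. Ifitm3 had 2 and 41 UMIs in knockout members and 117 and 5 in control members, and Top2a 0 and 20 in knockouts and 62 and 0 in controls. The Nts and Gip values rest on the few members described in the report. Insm1 lost the call without control 2 (−0.93), without knockout 1 (−1.35) and with DESeq2 (−1.95). Neurog3 lost it without control 2 (−1.41), knockout 1 (−2.34) or knockout 2 (−1.88) and with DESeq2 (−2.65).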

How the results depend on the processing

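Counts of called genes moved with the setting. For knockout against control members, 21 higher and 27 lower genes were called with no filter on low counts, 2 higher with the replicate block, and 1 to 34 higher and 0 to 45 lower with a library left out. In members with 10 or more hormone UMIs, a setting chosen after seeing the data, 1 was higher, and with the replicate block 2 were higher and 1 lower. For members against enterochromaffin-type cells, DESeq2 gave 102 higher and 53 lower, no filter 239 higher, 10 hormone UMIs 248 higher and 127 lower, and a library left out 61 to 172 higher and 19 to 130 lower. Of the 240 main calls DESeq2 kept 151 in the same direction, and 77 were kept without control 1. For the difference of effects, DESeq2 gave 1 higher and 0 lower, doublets removed 36 and 42, 10 hormone UMIs 11 and 6, the replicate block 6 lower, and a library left out 10 to 37 higher and 7 to 32 lower. The cause was not tested.

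The difference in share was −0.754 points after thinning, −0.870 to 1.15 with a library left out (−0.178 without knockout 2), and 0.141 with the replicate block. Among single genes, Apoa1 against enterochromaffin-type cells was 0.99 with doublets removed. For the difference of effects, leaving out a library gave −0.48 (without knockout 2) to 3.26 for Apoa1 and, with the upper end without control 1, −12.06 to 7.39 for Zg16, −4.01 to 11.40 for Muc2 and −12.73 to 10.11 for Top2a. With 10 hormone UMIs Clca1 was 0.23, Ifitm3 1.61, Zg16 0.28, Muc2 11.63, Neurog3 0.65 and Top2a 10.75. Over the 68 genes named against enterochromaffin-type cells, 635 of 703 alternative values kept direction and call, 67 lost the call and 1 changed sign. Genes for which an alternative gave no adjusted p are not in the 703. With no library block, for example, 50 of the 68 had a value. The 68 were chosen because they passed the main fit. Control 2, with 8 members and 1 enterochromaffin-type barcode, limits every control value.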
